A study of Rattus norvegicus with 24 samples.

Results

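The genes described here encode 2 matrix metalloproteinases, Mmp2 and Mmp14, and 3 of their tissue inhibitors, Timp1, Timp2, and Timp3, in the hearts of rats that received particles or zinc through the airways. Every probe set of the Affymetrix Rat 230A array whose annotation named 1 of these 5 genes and no other was taken, which gave 10 of the 15866 probe sets tested: 2 for Mmp2, 1 for Mmp14, 1 for Timp1, 2 for Timp2, and 4 for Timp3. Heart RNA, taken from the left ventricle with its septum, was hybridized to 24 arrays, 4 biological replicates in each of 6 groups of male Wistar Kyoto rats aged 12 to 14 weeks at the start. Once a week the rats were instilled intratracheally, at 1 mL/kg, with zinc sulfate in saline (Zn), with a whole suspension of oil combustion particles holding water-soluble zinc (14.5 μg/mg) and nickel (3 μg/mg) at a high dose (PM-HD), with a lower dose of these particles (PM-LD, labelled with 7.25 μg/mg zinc and 1.5 μg/mg nickel), with the leachable fraction of the particles free of solids (PM-L), with Mount St. Helens ash, which lacks water-soluble zinc (MSH), or with saline alone. For Zn, the group label gives 14.5 μg/mL of zinc and the protocol 33.4 μg/mL, but the study's methods tie the protocol's value to a 16-week exposure and state that rats exposed for 8 weeks received a higher concentration. The study's arrays of Zn, PM-HD, MSH, and saline came from the 8-week exposure with necropsy 48 hr after the last instillation, and for the PM-LD and PM-L arrays the sources used here do not give the duration.

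Matrix metalloproteinases are zinc-dependent enzymes that cut the collagens, laminins, and other proteins around cells, and in the heart they take part in the remodeling that follows injury or overload. Mmp2, a gelatinase made largely by fibroblasts and endothelial cells, is secreted as an inactive precursor. Mmp14 is anchored in the cell membrane, cuts fibrillar collagen, and activates the Mmp2 precursor on the cell surface with Timp2 as the link between them. Timp1 is an inducible, soluble inhibitor that binds Mmp14 poorly, Timp2 is made more constantly, and Timp3 is held in the matrix and also inhibits ADAM proteases such as Adam17.

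Because metals were part of the exposure, the bases just before the start of each inhibitor gene are shown, with 2 kinds of motif in capitals. These are the GC box bound by Sp1 (GGGCGG) and the core of the metal response element bound by the zinc sensor Mtf1 (TGCACNC or TGCGCNC), searched on both strands and printed as read on the gene's strand, and no match of one overlapped a match of the other. The sequences are from RefSeq, build GRCr8, on the minus strand: 250 bases that end at the start of Timp1 (chrX:3771123-3771372), Timp2 (chr10:104089215-104089464), and Timp3 (chr7:19459559-19459808). Promoters were matched for 3 of the 5 genes.
Timp1: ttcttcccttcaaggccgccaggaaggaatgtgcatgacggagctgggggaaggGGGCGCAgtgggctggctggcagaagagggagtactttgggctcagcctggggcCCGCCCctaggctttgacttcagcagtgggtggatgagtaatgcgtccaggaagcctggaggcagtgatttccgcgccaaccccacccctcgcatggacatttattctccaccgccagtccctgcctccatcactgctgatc
Timp2: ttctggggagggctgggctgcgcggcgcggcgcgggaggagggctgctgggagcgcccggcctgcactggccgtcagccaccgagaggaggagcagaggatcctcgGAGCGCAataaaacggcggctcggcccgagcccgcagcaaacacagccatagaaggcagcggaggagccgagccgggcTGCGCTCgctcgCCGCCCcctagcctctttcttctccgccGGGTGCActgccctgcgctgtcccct
Timp3: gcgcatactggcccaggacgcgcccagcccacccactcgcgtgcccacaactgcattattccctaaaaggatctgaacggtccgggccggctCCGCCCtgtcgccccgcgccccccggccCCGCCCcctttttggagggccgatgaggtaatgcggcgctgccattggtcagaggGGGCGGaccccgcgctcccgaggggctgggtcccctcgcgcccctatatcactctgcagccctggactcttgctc
Timp3 held 3 GC boxes, which began 158, 130, and 75 bases before the start, and Timp1 and Timp2 held 1 each, at 142 and 54 bases. A GC box was present in 30.5% of the 33469 rat promoters of the same length. The metal response core matched 3 times in Timp2 (144, 66, and 26 bases before the start), once in Timp1 (196 bases), and in no place in Timp3, against 20.6% of all promoters with a match. Neither the exact AP-1 letters TGANTCA (found in 6.34% of promoters) nor the TATA box letters TATAAA (12.9%) matched on either strand in any of the 3 windows. Variants of these motifs with other letters were not searched, so sites of that kind may be present. GC made up 61.2% of the Timp1 bases, 72.0% of those of Timp2, and 69.6% of those of Timp3, with a median of 51.2% over all promoters.

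All arrays had been scaled to a trimmed mean between 500.1 and 500.2, and their median signals lay between 205.5 and 278.2. The Gapdh ratio, which divides the signal of the 3′ control probe set for Gapdh by that of the 5′ one and is a measure of RNA integrity and labeling, near 1 for intact RNA, ranged from 1.11 to 5.62 and was above 3 on 9 arrays: 1 of Zn, 2 of PM-HD, 1 of PM-LD, 2 of PM-L, 2 of MSH, and 1 of saline. The study's methods state that the ratio of the ribosomal RNAs, another measure of integrity, was at or above a given value in all samples. They give no values for single arrays. Transcripts of ventricular muscle were bright on every array, with the summed signal of 9 marker genes between 148106 and 290998, whereas the summed signal of 4 atrial markers ranged from 2667 to 43218, with high arrays in several groups. The 6 lung epithelium markers summed to between 284 and 2011.

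Mmp14 was the one member that passed the thresholds in any comparison. Its signals (probe set 1367860_a_at) were 307, 336, 727, and 437 in Zn hearts, 641, 406, 592, and 1320.5 in PM-HD hearts, 564, 347, 482, and 263 in PM-LD hearts, 819, 331, 799, and 658 in PM-L hearts, 1035, 759.8, 1014, and 910.3 in MSH hearts, and 454, 496, 816, and 683 in saline hearts. The 4 MSH hearts were all above the 4 Zn hearts and the 4 PM-LD hearts, and the highest Mmp14 signal of all was that of PM-HD replicate 4. Normalized values did not overlap for 5.16% of all probe sets with Zn against MSH. For PM-LD against MSH, which was not among the comparisons run, that share was not computed. By mean signal the groups ran MSH (930 ± 126, SD, n = 4), PM-HD (739.9 ± 400.0), PM-L (652 ± 225), saline (612 ± 168), Zn (452 ± 192), and PM-LD (414 ± 135), and every neighboring pair in this order had overlapping ranges.

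Mmp14 fell in Zn hearts relative to MSH hearts, by a log2 fold change of −1.01 (standard error 0.31, 95% interval −1.67 to −0.35), a fold of 0.498. This passed the thresholds of the study, an unadjusted p under 0.05 with a rise or a fall of more than 25%, since the unadjusted limma p was 0.00541. The adjusted p of limma over all probe sets was 0.502, and the exact permutation p, two-sided, was 0.0286, the smallest that 4 against 4 arrays can give. Of all probe sets, 6.66% passed the same thresholds in this comparison. Apart from a threshold on the adjusted p, the change passed with the same sign under each alternative setting and without each of the 8 Zn and MSH arrays in turn, with log2 fold changes between −0.85 and −1.22. The Gapdh ratio had a median of 1.50 on the Zn arrays and 2.76 on the MSH arrays, and the value of −0.85 is that with this ratio as a covariate.

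Neither side of that comparison differed from saline by the thresholds. The log2 fold change of Mmp14 against saline was −0.39 in Zn hearts (95% interval −1.05 to 0.27, exact permutation p = 0.286) and 0.61 in MSH hearts (−0.05 to 1.27, exact permutation p = 0.0571). It was 0.17 in PM-HD hearts (−0.49 to 0.83), −0.53 in PM-LD hearts (−1.20 to 0.13), and 0.052 in PM-L hearts (−0.61 to 0.72). The adjusted p of limma against saline was 0.9986 or more for each of the 10 probe sets and each exposure. The MSH difference did pass with the Gapdh ratio as a covariate (0.51), within only the 8 arrays of both groups, with the replicate block, and without saline replicate 3 (0.76). Over all 6 groups, the limma F test gave Mmp14 an unadjusted p of 0.0230 and an adjusted p of 0.905. It was the only 1 of the 10 probe sets under 0.05, a level that 5.01% of all probe sets reached. Without PM-LD replicate 4, MSH replicate 1, or MSH replicate 3, this p was 0.0525, 0.0584, or 0.0547, and without the 9 arrays of high Gapdh ratio it was 0.115.

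**Figure D1:**
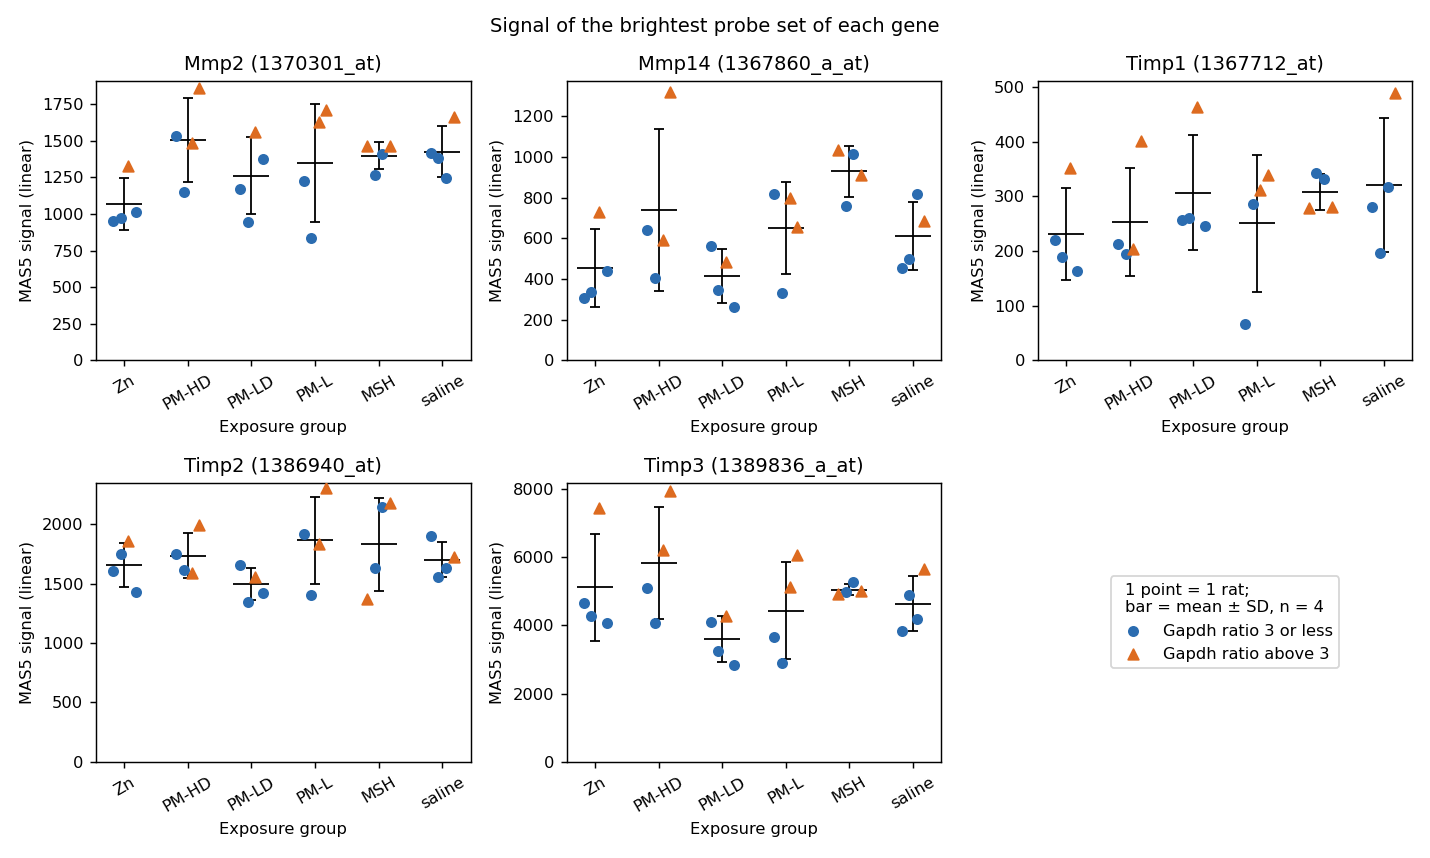
MAS5 signal (linear vertical axis from 0) of the brightest probe set of each of the 5 genes, 1 point per rat and group, with black bars for the mean ± SD of 4 rats and orange triangles for arrays with a Gapdh 3′ to 5′ ratio above 3. The 4 MSH hearts lie between 759.8 and 1035 for Mmp14, above all 4 Zn hearts, while the Zn and MSH hearts overlap for the other 4 genes. Of all probe sets, 5.16% had normalized values without overlap between Zn and MSH.

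By group mean, Mmp2 was lowest in Zn hearts, and it passed the thresholds in no comparison of the main fits. The signals of its brighter probe set (1370301_at) were 953, 976, 1329, and 1016 in Zn hearts, 1531, 1153, 1486, and 1859 in PM-HD hearts, 1173, 943, 1559, and 1375 in PM-LD hearts, 1225, 838, 1632, and 1713 in PM-L hearts, 1462, 1268, 1407, and 1463 in MSH hearts, and 1415, 1380.4, 1248, and 1663 in saline hearts. Of the Zn hearts, 3 lay below every MSH and saline heart, and Zn replicate 3, which also had a Gapdh ratio of 5.57, overlapped both groups. The group means ran PM-HD, saline, MSH, PM-L, PM-LD, and Zn, and each neighboring pair overlapped. The log2 fold change of Mmp2 was −0.41 in Zn hearts against saline (standard error 0.17, 95% interval −0.78 to −0.047, exact permutation p = 0.0571). The unadjusted limma p was 0.0296, but the fold of 0.7502 missed the fold limit of 0.75. Against MSH the log2 fold change was −0.41 as well (standard error 0.17, 95% interval −0.78 to −0.042, exact permutation p = 0.0571, limma adjusted p = 0.635), a fold of 0.754.

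Both Mmp2 differences passed the thresholds when the 9 arrays of high Gapdh ratio were left out (−0.43 against saline and −0.44 against MSH). They passed as well without Zn replicate 3 alone (−0.52 against saline and −0.52 against MSH). They missed the unadjusted p of 0.05 in the fit of all 24 arrays and without Zn replicate 1, 2, or 4 (−0.36 to −0.39 in both comparisons). The difference from saline also missed it within only the 8 arrays of both groups and without saline replicate 4 (−0.32), and that from MSH without MSH replicate 1, 3, or 4 (−0.38 to −0.41) and with median centering (−0.24). With PM-HD, PM-LD, PM-L, or MSH, the log2 fold changes of this probe set against saline lay between −0.19 and 0.07 and none passed. The dimmer Mmp2 probe set (1369825_at) had a signal of 147 ± 55.8 in Zn hearts (SD, n = 4), 209.6 ± 51.4 in MSH hearts, and 170.0 ± 42.7 in saline hearts. Its log2 fold change was −0.17 in Zn hearts against saline and −0.37 against MSH (exact permutation p of 0.714 and 0.343), and the 2 Mmp2 probe sets correlated over the 24 arrays with r = 0.44.

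Timp1, the inducible inhibitor, did not pass the thresholds in any of the 6 comparisons. Its signals were 219, 189, 352, and 163 in Zn hearts, 212, 195, 203, and 402 in PM-HD hearts, 256, 259.7, 464, and 246 in PM-LD hearts, 66.0, 286, 311, and 339 in PM-L hearts, 279, 342, 331, and 281 in MSH hearts, and 281, 197, 316, and 489.9 in saline hearts. PM-L replicate 1 was far below all other hearts, and the highest heart of Zn, PM-HD, PM-LD, and saline was in each case an array with a Gapdh ratio above 4. The log2 fold changes against saline were −0.36 in Zn (standard error 0.25), −0.35 in PM-HD (0.25), −0.011 in PM-LD (0.34), −0.52 in PM-L (0.34), and −0.061 in MSH (0.25). The exact permutation p of these differences was between 0.286 and 0.971. Single arrays carried much of these values: without PM-L replicate 1 the PM-L difference was −0.046, and without saline replicate 4 the differences were −0.17 in Zn and −0.16 in PM-HD. Without PM-HD replicate 4, Timp1 was lower in PM-HD hearts by a log2 fold change of −0.56, and with the Gapdh ratio as a covariate by −0.45, and both passed. In Zn hearts against MSH hearts it was −0.30 (exact permutation p = 0.143), and −0.60 without the arrays of high Gapdh ratio, where it passed.

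Timp2 varied least among the inhibitors. Its brighter probe set (1386940_at) had signals of 1602, 1746, 1856, and 1427 in Zn hearts, 1749, 1612, 1588, and 1992 in PM-HD hearts, 1652, 1346, 1552, and 1424 in PM-LD hearts, 1914, 1407, 1835, and 2300.0 in PM-L hearts, 1370.5, 1631, 2139.8, and 2174 in MSH hearts, and 1897, 1552, 1629, and 1720.1 in saline hearts. All groups overlapped, and the highest signal was 1.71 times the lowest over the 24 arrays. The log2 fold changes were −0.062 in Zn, 0.028 in PM-HD, −0.19 in PM-LD, 0.14 in PM-L, and 0.10 in MSH hearts against saline, with standard errors of 0.17. The 95% intervals from limma reached at most 0.55 on the log2 scale in either direction. The second Timp2 probe set (1367823_at) gave 538 ± 76.2 in PM-L hearts and 416 ± 87.9 in saline hearts (SD, n = 4), a log2 fold change of 0.37 (exact permutation p = 0.0571) that passed only without saline replicate 4 (0.46). The 2 Timp2 probe sets correlated with r = 0.16 only, so that the array gives no single pattern for this gene.

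Timp3 was represented by 4 probe sets, none of which passed the thresholds. The brightest (1389836_a_at) had signals of 4663, 4286, 7439.5, and 4084 in Zn hearts, 5111, 4062, 6214, and 7928 in PM-HD hearts, 4086, 3262, 4269, and 2844 in PM-LD hearts, 3652, 2895, 5134, and 6056 in PM-L hearts, 4919, 4968, 5279.9, and 5016 in MSH hearts, and 3826, 4888, 4174, and 5666 in saline hearts. The PM-LD hearts lay below all 4 MSH hearts, and the MSH hearts were the most alike, with a signal of 5046 ± 161 (SD, n = 4). PM-LD against MSH was not among the comparisons run, and the share of all probe sets without overlap between them was not computed. The log2 fold changes against saline were 0.02 in Zn (standard error 0.28), 0.32 in PM-HD (0.28), −0.39 in PM-LD (0.31), −0.07 in PM-L (0.31), and 0.17 in MSH (0.28). In the Zn, PM-HD, PM-LD, PM-L, and saline groups the highest Timp3 signal was in each case on an array with a Gapdh ratio above 3.

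Probe set 1372926_at of Timp3 stood higher in Zn and in PM-LD hearts than in saline hearts without passing. Its signals were 436, 396, 734, and 398 in Zn hearts, 438, 426, 656, and 393 in PM-LD hearts, and 274, 362, 354, and 450.0 in saline hearts. The signals overlapped at saline replicate 4. After normalization the values did not overlap, with an exact permutation p of 0.0286 for each comparison (two-sided, 4 against 4). In those comparisons, 2.72% of all probe sets for Zn and 2.29% for PM-LD did not overlap with saline. The log2 fold changes were 0.47 for Zn (standard error 0.26) and 0.42 for PM-LD (0.26). With the Gapdh ratio as a covariate they were 0.52 and 0.50 and passed. The brightest Timp3 probe set did not pass with that covariate, at 0.086 for Zn and −0.28 for PM-LD. Without the arrays of high Gapdh ratio, the values for PM-LD were 0.37 (1372926_at, passed) and −0.39 (brightest probe set, not passed). With PM-LD these probe sets of the same gene therefore differed in sign. The saline arrays were shared by both comparisons.

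The number of members that passed is given beside the share of all probe sets that did. With Zn against saline 0 of the 10 probe sets passed the thresholds, where 4.46% of all 15866 passed. The counts were also 0 of 10 for PM-HD (3.67% of all), PM-LD (4.11%), PM-L (4.25%), and MSH (3.57%) against saline. With Zn against MSH, 1 of 10 passed, Mmp14, where 6.66% of all passed. At an unadjusted p under 0.05 with no fold limit, the limma fit called 1 of 10 with Zn against saline (Mmp2), where 4.92% of all probe sets were called, and 2 of 10 with Zn against MSH (Mmp14 and Mmp2), where 7.27% were. By limma, 0 members had an adjusted p under 0.05 in any comparison. The normalized values of the groups did not overlap for 1 of 10 with Zn against saline, where 2.72% of all probe sets did not. The count was 1 with PM-LD against saline (2.29% of all) and 1 with Zn against MSH (5.16%). It was 0 with PM-HD (2.1%), PM-L (2.37%), and MSH (3.13%) against saline. The median log2 fold change of the 10 members was −0.02 in Zn, 0.12 in PM-HD, −0.04 in PM-LD, −0.06 in PM-L, and 0.14 in MSH hearts against saline, and −0.22 in Zn hearts against MSH, while the median over all probe sets lay between −0.01 and 0.00. Centered on the median in place of quantile normalization, the median of the members with Zn against MSH was 0.00. The share of higher calls among all calls in that comparison was 67.9% with median centering and 55.0% with quantile normalization.

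**Figure D2:**
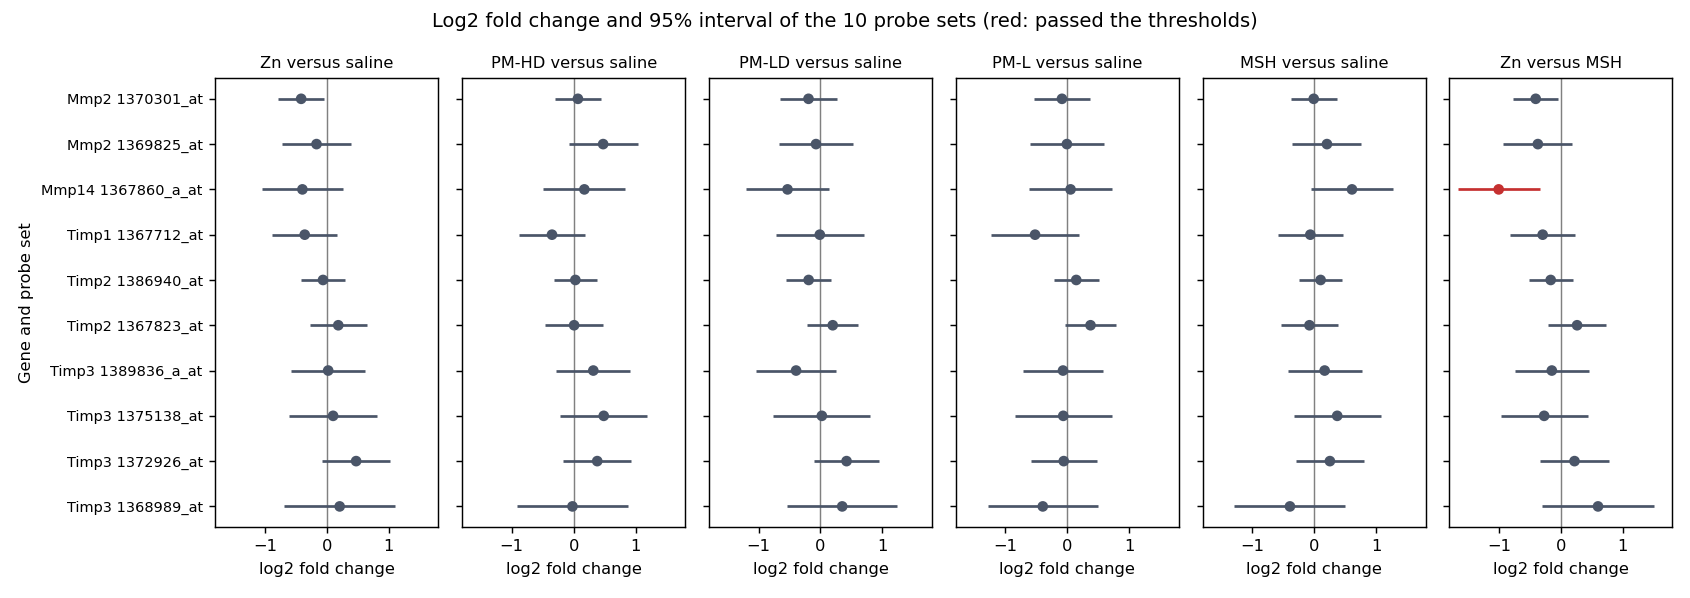
Log2 fold change (horizontal axis) of each of the 10 probe sets (rows) in each of the 6 comparisons (panels), with points for the estimate and lines for the 95% interval from limma. Only Mmp14 with Zn against MSH, at −1.01, passed the thresholds and is red; the intervals of Mmp2 1370301_at with Zn also lie below 0.

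The brightest probe sets of 4 of the genes varied together over the 24 arrays. On the normalized log2 scale, Pearson's r was 0.76 for Mmp2 and Timp3, 0.68 for Mmp14 and Timp3, 0.68 for Timp2 and Timp3, 0.64 for Mmp2 and Timp2, 0.63 for Mmp2 and Mmp14, and 0.62 for Mmp14 and Timp2. Spearman's rho for these 6 pairs was between 0.58 and 0.77. The permutation p of r was 4e-05 for Mmp2 and Timp3 (adjusted 0.000133 over 20 relations) and at most 0.00131 for the other 5 pairs (adjusted at most 0.00218). Without the 2 arrays farthest from the median of the first gene, r for these pairs was between 0.53 and 0.68. For Timp1, r was between 0.067 and 0.35 to the other 4 genes, with adjusted permutation p of 0.119 or more, and rho was between 0.26 and 0.39. Without the 2 farthest arrays, r was 0.46 for Mmp2 and Timp1, 0.35 for Timp1 and Timp2, 0.25 for Timp1 and Timp3, and −0.022 for Mmp14 and Timp1.

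This co-variation lay within the groups and moved with the Gapdh ratio. Of the deviations from the group means, r was 0.86 for Mmp2 and Timp3 and between 0.55 and 0.69 for the other 5 pairs. The log2 Gapdh ratio correlated with Timp3 (r = 0.90, rho = 0.91, permutation p = 1e-05, the smallest the resamples can give, adjusted 6.67e-05), with Mmp2 (r = 0.80, rho = 0.80), with Mmp14 (r = 0.61, rho = 0.67), and with Timp2 (r = 0.56, rho = 0.60). For Timp1 it was 0.42 (rho = 0.39, permutation p of r = 0.0364, adjusted 0.0485). On the 15 arrays with a Gapdh ratio of 3 or less, r was between 0.56 and 0.75 for the 6 pairs, and on the 9 arrays above 3 between 0.12 and 0.38. The limit of 3 did not remove the ratio from these values. Within the 15 arrays, the log2 Gapdh ratio had an r of 0.88 to Timp3, 0.77 to Mmp14, 0.63 to Mmp2, and 0.61 to Timp2. To Timp1 it was 0.067. With the group means and the Gapdh ratio both removed, r was 0.59 for Timp2 and Timp3 (permutation p = 0.00212) and 0.49 for Mmp2 and Timp2 (p = 0.0149), and between 0.11 and 0.36 for the other 4 pairs. The part of RNA integrity in these relations was not tested beyond these values.

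The scaling also bore on Timp2. With median centering its r was 0.22 to Mmp2, 0.22 to Mmp14, and 0.30 to Timp3, all with a permutation p above 0.05, whereas Mmp2 and Mmp14 (0.46), Mmp2 and Timp3 (0.42), and Mmp14 and Timp3 (0.52) kept a permutation p under 0.05. Many other genes varied in the same way. Of 6012 genes brighter than the median, 24.9% had an r above 0.5 to Mmp2, 19.1% to Mmp14, 17.5% to Timp2, and 27.4% to Timp3, but 1.75% to Timp1. For Mmp2, 331 of 6011 other genes had an r at least as high as that of Timp3, and for Timp3, 668 had one at least as high as that of Mmp2.

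**Figure D3:**
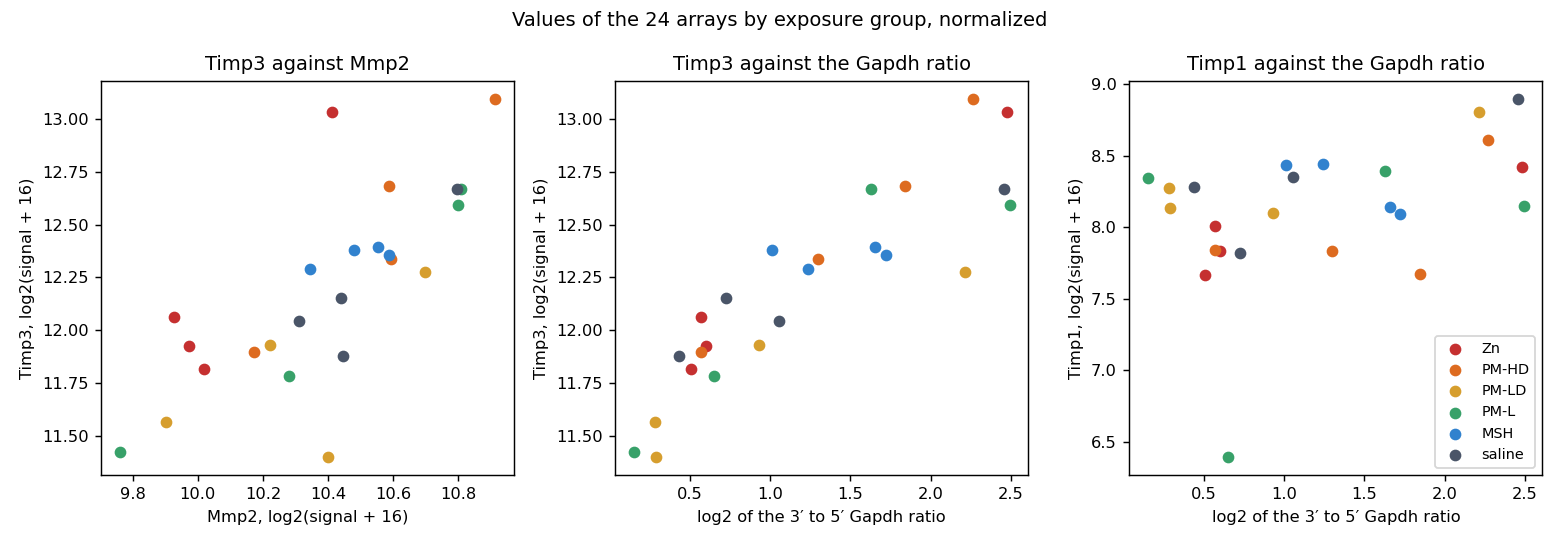
Normalized log2(signal + 16) values of the 24 arrays, colored by exposure group: Timp3 against Mmp2 (left), and Timp3 (middle) and Timp1 (right) against the log2 Gapdh ratio (3′ over 5′). Timp3 climbs with both (r = 0.76 and 0.90) and the groups mix along the trend, while Timp1 follows the ratio less (r = 0.42), with PM-L replicate 1 far below the rest.

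Within single genes the probe sets did not always follow each other. The brightest Timp3 probe sets, 1389836_a_at and 1375138_at, correlated with r = 0.90 over the 24 arrays, and the dimmest, 1368989_at, with the first at 0.38. The second Timp2 probe set was the one member with negative r to several others, from −0.33 to the dimmer Mmp2 probe set to 0.16 to its own partner.

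**Figure D4:**
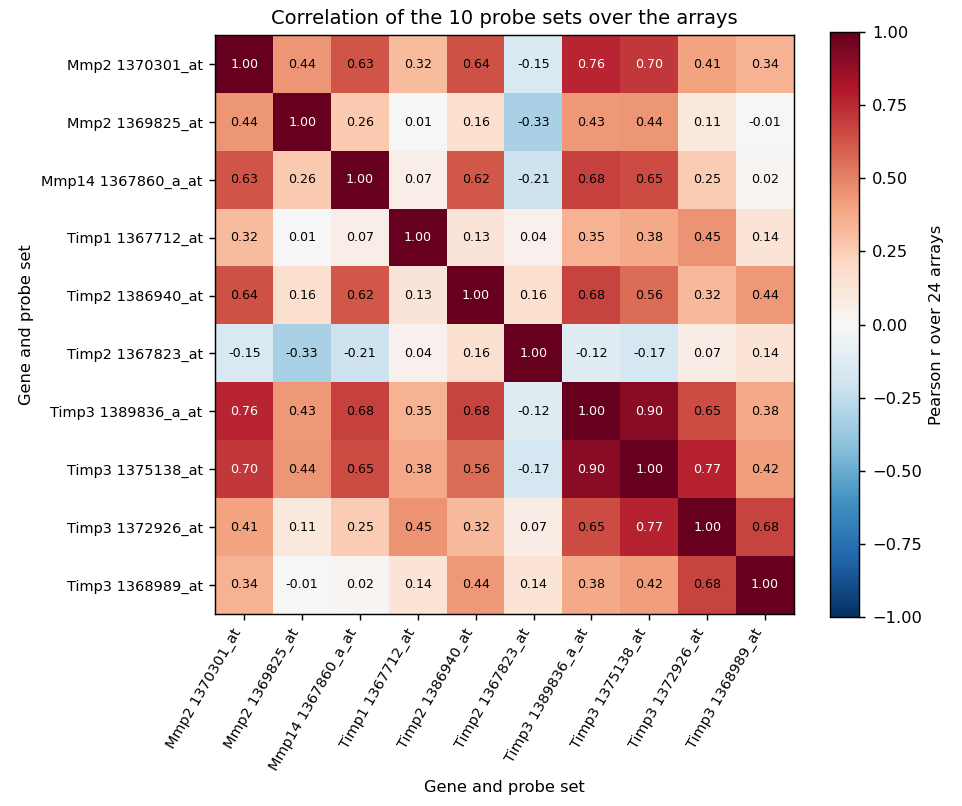
Pearson r over the 24 arrays (color and number in each cell) between the normalized log2 values of the 10 probe sets, on both axes in the same order. The block of high values joins Mmp2 1370301_at, Mmp14, Timp2 1386940_at, and the 2 brightest Timp3 probe sets, while Timp1 and Timp2 1367823_at have lower values.

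The genes most like each member were named by the highest r over the 24 arrays among these 6012 genes. For Mmp2 they were Nid1 (r = 0.91), which encodes the basement membrane protein nidogen 1, Fstl1 (0.90), a secreted glycoprotein of mesenchymal cells, and S100a11 (0.89). For Timp3 they were Gimap4 (0.96), Card10 (0.94), and Kitlg (0.93), the stem cell factor. For Timp2 they were Ddr2 (0.86), a collagen receptor of fibroblasts, Itgb4 (0.83), and Icoslg (0.81). For Mmp14 they were Hexa (0.82), a lysosomal hexosaminidase subunit, Trit1 (0.81), and Ywhaq (0.81). For Timp1 they were Plcb3 (0.82), Ubl3 (0.73), and Aplf (0.68).

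Which cells of the heart made these transcripts was not tested. The mean of 12 fibroblast markers, among them Col1a1, Dcn, and Pdgfra, correlated with Mmp2, Timp2, Timp3, and Mmp14, and less closely with Timp1. Its r over the 24 arrays was 0.82 to Mmp2 (rho = 0.84, permutation p = 1e-05, adjusted 6.67e-05), 0.78 to Timp2 (rho = 0.78), 0.74 to Timp3 (rho = 0.78), and 0.68 to Mmp14 (rho = 0.74), and 0.33 to Timp1 (permutation p = 0.113, adjusted 0.133). For Timp1, rho was 0.50 (permutation p = 0.0138, adjusted 0.0184), and r without PM-L replicate 1 and saline replicate 4 was 0.58. With the group means and the Gapdh ratio removed, r was 0.42 for Mmp2, 0.68 for Timp2, 0.47 for Timp3, 0.34 for Mmp14, and 0.13 for Timp1. The summed fibroblast signal had a median of 24838 in Zn hearts (range 22298 to 36766), 33051 in MSH hearts (29306 to 37826), and 28026 in saline hearts (25787 to 35507). In Zn hearts 0 of the 12 fibroblast markers had a positive log2 fold change against MSH or against saline. In Zn against MSH 4 fell by the thresholds (Thy1, Lum, Dcn, and Col3a1), with a list median of −0.40, beside the fall of Mmp14. Of all probe sets, 6.66% passed in this comparison. Lum, Dcn, and Col3a1 are also among the matrix substrates counted below. Of the 12, 1 fell with median centering, 2 with the Gapdh covariate, and 4 without the arrays of high Gapdh ratio. Without single arrays it was between 1 and 7, with 1 without Zn replicate 4, MSH replicate 3, or MSH replicate 4, 2 without Zn replicate 1 or 2, and 7 without Zn replicate 3 or MSH replicate 2. The other marker lists were not tested for correlation with the members. With Zn against MSH, marker list medians were −0.54 for atrial muscle, −0.21 for smooth muscle, −0.20 for endothelium, and −0.08 for ventricular muscle. In the same comparison they were 0.01 for macrophages and leukocytes, 0.04 for mesothelium, 0.09 for erythrocytes, and 0.11 for lung epithelium. In tissue RNA, fewer cells of a type and less RNA per cell cannot be told apart, and the part of fibroblast content in the Mmp14 difference was not tested.

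Among the matrix proteins that these enzymes cut, more genes passed with Zn against MSH than in the comparisons with saline. Of 29 matrix substrates, 0 rose and 7 fell in Zn hearts relative to MSH hearts (median log2 fold change −0.35, against −0.01 over all probe sets, of which 6.66% passed). The 4 with the lowest p were Nid2, a nidogen of the basement membrane, with a signal of 597 ± 177 in Zn hearts and 936 ± 97.2 in MSH hearts (log2 fold change −0.62, adjusted p = 0.502, limma), Fbn1 (fibrillin 1; −0.72), Lum (lumican; −0.61), and Col6a1 (−0.54). On the arrays of these groups the Gapdh ratio had medians of 1.50 (Zn) and 2.76 (MSH), and the summed signal of the 29 genes was 93113 in Zn replicate 3, the Zn array of high Gapdh ratio, against a Zn median of 58040 and an MSH median of 76389. The number that fell was 2 with median centering (list median −0.18), 4 with the Gapdh ratio as a covariate (−0.20), and 16 either without the arrays of high Gapdh ratio (−0.46) or without Zn replicate 3 alone (−0.52). Without another single array it was 2 without Zn replicate 4, MSH replicate 3, or MSH replicate 4, 3 without Zn replicate 1 or 2, 8 without MSH replicate 1, and 11 without MSH replicate 2, and 0 of the 29 rose in any of these settings, which were chosen after the data were seen. Relative to saline, only Fbn1 of the 29 fell in Zn hearts (752 ± 304 in Zn and 1106 ± 127 in saline hearts, SD, n = 4; log2 fold change −0.57, adjusted p = 0.999, limma). Of the 29 substrates, 1 rose in MSH hearts (Nid2, 0.49), 1 rose in PM-L hearts (Col18a1, 0.40), and 0 passed in PM-HD and PM-LD hearts against saline. For PM-HD and MSH, 28 and 27 of the 29 had positive log2 fold changes, with medians of 0.15 and 0.18.

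Of the 12 other metalloproteinases measured, 2 passed with Zn against MSH and 1 in each comparison with saline, where 6.66% and 3.57% to 4.46% of all probe sets passed. Mmp13, a collagenase, had signals of 18.4 ± 12.5 in Zn, 52.9 ± 17.1 in MSH, and 50.2 ± 19.4 in saline hearts (SD, n = 4). It passed as lower in Zn hearts in both comparisons, but its Zn level was near the pseudocount of 16 and its lowest signal was 1.7, so no fold change is given. In the comparison with MSH, Mmp24 rose in Zn hearts (log2 fold change 0.81). Against saline, Mmp8, the neutrophil collagenase, rose with PM-HD (0.68), Mmp12, the macrophage elastase, rose with PM-L (0.86), and Mmp23 rose with MSH (0.69). Mmp16 passed as lower with PM-LD (31 ± 32 in PM-LD and 78 ± 51 in saline hearts, SD, n = 4). Its lowest signal was 8.6, under the pseudocount, so no fold change is given for it either. The adjusted p of each was 0.618 or more. Other family members were also dim, and Mmp9 and Mmp7 had median signals of 13.5 and 11.2 over the 24 arrays, under the pseudocount of 16.

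Among 8 other inhibitors and regulators, Pcolce, the enhancer of procollagen C-proteinase, fell in Zn hearts relative to MSH (461 ± 68.2 in Zn and 738 ± 41.1 in MSH hearts, SD, n = 4; log2 fold change −0.60, adjusted p = 0.502, limma), and 0 passed against saline with any exposure. Of the 6 plasminogen system genes, Plat, which encodes tissue plasminogen activator, fell in Zn hearts relative to MSH (−0.67), and 0 passed against saline. Of 7 ADAM and ADAMTS proteases, Adam19 rose in Zn hearts relative to MSH (0.42), and 0 passed against saline. Of 6 cathepsin genes and their inhibitor, Ctsd rose (0.48) and Ctss fell (−0.69) in Zn hearts relative to MSH, and Ctsk rose in PM-L hearts relative to saline (1.06).

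Of 16 inducers of matrix turnover, Spp1, which encodes osteopontin, rose in Zn hearts both relative to saline (335 ± 65.9 in Zn and 172 ± 106 in saline hearts, SD, n = 4; log2 fold change 1.14, adjusted p = 0.999, limma) and relative to MSH (1.08). Relative to MSH, Ccn2, the connective tissue growth factor, fell in Zn hearts (1491 ± 108 in Zn and 2346 ± 481 in MSH hearts; −0.67, adjusted p = 0.502), as did the monocyte chemokine Ccl2 (−1.19). Ccl2 rose in MSH hearts relative to saline (1.16), where Fos passed as lower with a mean signal of 15.8 in MSH hearts, under the pseudocount, and Jun fell in PM-HD hearts (−0.61, adjusted p = 0.621, limma). With PM-LD and PM-L, 0 of the 16 passed, where 0 and 1 had an unadjusted limma p under 0.05.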

How the data were processed

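Hearts were profiled on Affymetrix Rat 230A arrays. The authors deposited linear signal intensity values, made with MAS5 and scaled to a common trimmed mean; their own tests used other values, not used here. After addition of 16 and log2 transformation, the 24 arrays were quantile normalized, and 57 control probe sets were left out. On each array, 4.70% to 10.6% of signals were under 16, so log2 fold changes of dim probe sets are understated. The limma package (3.58.1, R 4.3.3) compared group means over 16 arrays (Zn, PM-HD, MSH, saline) or, for PM-LD, PM-L, and the F test, over 24, and p was adjusted by Benjamini-Hochberg over 15866 probe sets. The scripts were tested on simulated data. Exact permutation tests used all 70 arrangements of 4 against 4 arrays. Correlations used 100000 resamples (numpy 2.4.6) and 20 relations: 10 pairs of genes, and each gene with the fibroblast mean and with the Gapdh ratio.

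A gene outside the members was represented by its brightest probe set. All member probe sets were named, with up to 4 genes per list and comparison that passed (lowest p first) and the 3 genes most like each member. The members and gene lists were chosen with earlier results of these data known. Of the probe sets tested, 12783 carried 1 gene symbol, 312 several, and 2771 none, and 12748 of the first kind matched RefSeq. No probe set was compared in level with another. The arrays are biological replicates by the study's methods, no 2 arrays held identical values, and their number limits the precision. Alternatives were a pseudocount of 1 or 64, median centering, bright probe sets only, other sets of arrays, the replicate number as a block, the Gapdh ratio as a covariate or limit, other thresholds, and leaving out each array in turn.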

Additional observations from a re-analysis of the deposited data

Results flagged for a closer look

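In PM-L replicate 1 the Timp1 signal was 66.0, whereas the other 3 PM-L hearts had 286 to 339. Its Gapdh ratio was 1.57, within the range of the other arrays.

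In Zn replicate 3, probe set 1372926_at of Timp3 had a signal of 733.6, above the 396 to 436 of the other 3 Zn hearts, and the Gapdh ratio of that array was 5.57. In PM-LD replicate 4, the dimmest Timp3 probe set, 1368989_at, had a signal of 285.5, within the 242 to 311 of the other PM-LD hearts, but after normalization its log2 value of 8.34 stood apart from 8.18, 8.19, and 8.21. These 3 values were found among 60 groups of 4 examined, and chance alone marks about 1 in 20 such groups.

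The effect of Zn on Mmp14 differed from that of MSH by a log2 fold change of −1.01, tested as the direct comparison of both groups with limma (adjusted p = 0.502, exact permutation p = 0.0286).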

How the results depend on the processing

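The Mmp14 difference between Zn and MSH kept its direction and passed under all alternatives run except the adjusted p, under which 0 members passed. Otherwise the counts of members called moved by 1 or 2 probe sets. With Zn against saline the count was 1 with a pseudocount of 1 (Mmp2), with the replicate block (Timp3 1372926_at), with the Gapdh covariate (the same probe set), without arrays of Gapdh ratio above 3 (Mmp2), and with no fold limit (Mmp2), and 0 to 1 without single arrays: it was 1 without Zn replicate 3 or saline replicates 1, 2, or 3 (Mmp2 each time). With PM-HD it was 1 in the 8 arrays of both groups (Mmp2 1369825_at) and with the Gapdh covariate (Timp1), and 0 to 2 without single arrays: 2 without PM-HD replicate 2 (Timp3 1375138_at and 1372926_at) and 1 without PM-HD replicate 4 (Timp1). With PM-LD it was 1 with the replicate block, the Gapdh covariate, and without arrays of high Gapdh ratio (Timp3 1372926_at each time). With PM-L it was 0 to 1 without single arrays. With MSH against saline it was 1 in the 8 arrays of both groups, with the replicate block, and with the Gapdh covariate, and 0 to 1 without single arrays, the call being Mmp14. With Zn against MSH it was 3 without arrays of high Gapdh ratio (Mmp14, Mmp2, and Timp1), 2 with no fold limit, and 1 to 2 without single arrays, with Mmp2 added without Zn replicate 3 or MSH replicate 2. The F test count was 2 with median centering and with the Gapdh covariate (Mmp14 and 1 of Timp3 each time), 2 without arrays of high Gapdh ratio (both of Timp3, with Mmp14 lost), and 0 to 1 without single arrays.

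Small log2 fold changes changed sign. With median centering, Timp2 was 0.052 in Zn against saline and 0.034 against MSH, and Timp3 0.13 against MSH. With the Gapdh covariate, values were −0.014 for Mmp2 and −0.010 for Timp2 in PM-HD, 0.061 for Timp1 in PM-LD, and 0.038 for Timp3 in Zn against MSH. Without arrays of high Gapdh ratio, Timp3 was −0.092 in Zn, Mmp2 −0.015, Mmp14 −0.15, and Timp2 −0.014 in PM-HD, Timp1 0.017 in PM-LD, Mmp14 −0.079 and Timp2 −0.036 in PM-L, and Mmp2 0.013 and Timp1 0.29 in MSH, all against saline. Without single arrays, the ranges against saline were −0.14 to 0.013 for Timp2 and −0.25 to 0.18 for Timp3 in Zn, −0.047 to 0.20 for Mmp2, −0.14 to 0.39 for Mmp14, and −0.050 to 0.084 for Timp2 in PM-HD, −0.18 to 0.18 for Timp1 in PM-LD, −0.22 to 0.13 for Mmp2, −0.085 to 0.31 for Mmp14, and −0.25 to 0.16 for Timp3 in PM-L, and −0.069 to 0.093 for Mmp2 and −0.23 to 0.12 for Timp1 in MSH.

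Of the 10 pairs of genes, 6 had a permutation p under 0.05, against 3 with median centering and 2 with the group means and the Gapdh ratio removed, a setting chosen after the data were seen. In that last setting the permutation p values are too small, as stated above. With Timp1, r turned to −0.19 for Timp2 with median centering, to −0.021 for Mmp2, −0.14 for Mmp14, and −0.16 for Timp2 without arrays of high Gapdh ratio, and to −0.15 for Mmp2 and −0.34 for Mmp14 with both removed. The cause of these moves was not tested.

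The replicate numbers were not used to pair the arrays in the main fits. Same-numbered arrays deviated together with r between −0.26 and 0.52. The median r was 0.056 for same-numbered arrays and −0.022 for differently numbered arrays. Of the same-numbered pairs, 22 of 60 were above 0.1, and 12 of 24 arrays were closest to their own number. A pairing by number was not tested beyond the replicate block. The replicate block moved the counts only as given above. Without arrays of high Gapdh ratio, 2 or 3 arrays per group were left. With 4 arrays a group, wide intervals limit every comparison, and an adjusted p under 0.05 was reached by 2 probe sets in all, both with PM-L. Over all probe sets, the number passing was 1105 with Zn against saline, 979 with PM-LD against saline, and 2094 with Zn against MSH without arrays of high Gapdh ratio, compared with 707, 652, and 1056 on all arrays. Without Zn replicate 3 alone it was 1315 with Zn against saline and 2306 with Zn against MSH. With the F test it was 1260 with the Gapdh covariate and 795 without it. Among probe sets above the median only, 221, 164, 216, 225, and 170 passed with Zn, PM-HD, PM-LD, PM-L, and MSH against saline, where 707, 583, 652, 674, and 567 of all passed, and 538 with Zn against MSH.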
